A study of Mus musculus with 5 samples.

Results

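Plasmacytoid dendritic cells (pDCs) are a dendritic cell (DC) lineage specialised in sensing viral nucleic acids, and the cells described here are the 712 that the authors' deposited annotation calls pDC among 10812 cells of 1 mouse bone marrow culture experiment. They were taken by that annotation, matched to the expression matrix by cell name. The other 10100 cultured cells were annotated as cDC1 (3335 cells), cDC2 (2202), mDC (1751), proliferating cDC1 (2233) and proliferating cDC2 (579). With the CT26 tumour library used for comparison, 19799 cells of the series were analysed here, and the 5555 tumour libraries were not used here.

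Bone marrow cells of C57BL/6 mice were grown in FLT3L and GM-CSF, a protocol for conventional DCs, and harvested on day 10. The 3 conditions were culture with 5555 melanoma cells lacking Ptgs genes (Ptgs-/-), culture with 5555 melanoma cells that keep them (Ptgs+/+), and no melanoma cells (untreated). Ptgs genes encode the cyclooxygenases, the enzymes that start prostaglandin synthesis. The deletion is in the melanoma cells only. The DCs of all 3 conditions are labelled only by their strain, and the melanoma cells were left out by a sort for live CD45+ cells, so the deletion cannot be checked in these data. The conditions were marked with hashtag antibodies and run as 1 droplet library with 30000 cells loaded, with 1 culture per condition. There is therefore no replicate of any condition, no test between conditions is given, and all intervals cover counting error only.

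A pDC keeps its identity through the E-box binding factor TCF4, together with SPIB, RUNX2 and BCL11A, and carries the surface lectin SIGLECH and the antiviral protein tetherin (BST2). Endosomal TLR7 and TLR9 detect RNA and DNA, and signal through IRF7 to type I interferon genes. In contrast to conventional DCs (cDC1 and cDC2), resting pDCs present antigen on MHC class II poorly, rarely divide, and carry lymphoid features such as Dntt, which encodes the terminal transferase of lymphocyte precursors. FLT3L supports their development, and GM-CSF is known to hold it back.

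The pDC class held 312 of 3584 cells cultured with Ptgs-/- cells, 200 of 3884 cells cultured with Ptgs+/+ cells and 200 of 3344 untreated cells. Its cells were shallow. Median depth was 3712 unique molecular identifiers (UMIs, counted transcripts) per pDC with Ptgs-/- cells, 4140 with Ptgs+/+ cells and 4082 untreated, against 9128, 9049 and 10054 in the other DCs of the same conditions. The median mitochondrial share of pDC UMIs was 4.47% with Ptgs-/- cells, 3.85% with Ptgs+/+ cells and 5.98% untreated. Levels below are mean CPM over cells (UMIs of a gene per 1000000 UMIs of the cell), and folds are log2 differences of mean CPM + 5. Between the cultured and the CT26 library, 29 cell barcodes were shared (0.268% of the cultured cells).

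Over all conditions together, the label held for most of the class and not for all of it. Siglech, the lectin restricted to pDCs among DCs, had a UMI in 62.1% of annotated pDCs, Tcf4 in 77.0% and Bst2 in 90.4%. By condition the Siglech share was 58.3% with Ptgs-/- cells, 49.5% with Ptgs+/+ cells and 80.5% untreated. After every cell was thinned to 3000 UMIs, which leaves out 167 of the 712 pDCs, the Siglech share was 58.5% in pDCs, against 12.1% in proliferating cDC2, 3.78% in cDC2, 1.69% in mDC and 1.09% in cDC1. The thinned Tcf4 share was 75% in pDCs, against 11.0% in cDC1. Bst2 separated the classes less, with 92.1% of pDCs against 66.9% of cDC1.

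The sum of 24 pDC markers had 2 humps across the annotated pDCs. Its median was 109 UMIs per 10000 UMIs of a cell with Ptgs-/- cells, 65.8 with Ptgs+/+ cells and 169 untreated, against 6.28 in the other DCs of all conditions. A level of 75, placed after the data were seen in the thinly filled range between the humps, left 435 marker-high pDCs (61.1%, exact interval 57.4 to 64.7%). That range was not empty, with 51 cells between 60 and 90. Marker-high cells made up 184 of 312 pDCs with Ptgs-/- cells (59.0%), 97 of 200 with Ptgs+/+ cells (48.5%) and 154 of 200 untreated (77.0%). At a level of 45 they made up 68.9%, 57.5% and 81.5% of pDCs in the same order. Siglech had a UMI in 91.3% of marker-high cells and in 16.2% of the 277 marker-low cells, which were the deeper ones (median 3696 UMIs in marker-high and 5000 in marker-low cells). The marker-low cells are thus not shown to be pDCs by these genes, and marker-high values stand beside the main differences between conditions. The comparisons with other DCs and with tumour pDCs below use the whole class. The 24 markers define the marker-high cells, so their level there is no finding.

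**Figure D1:**
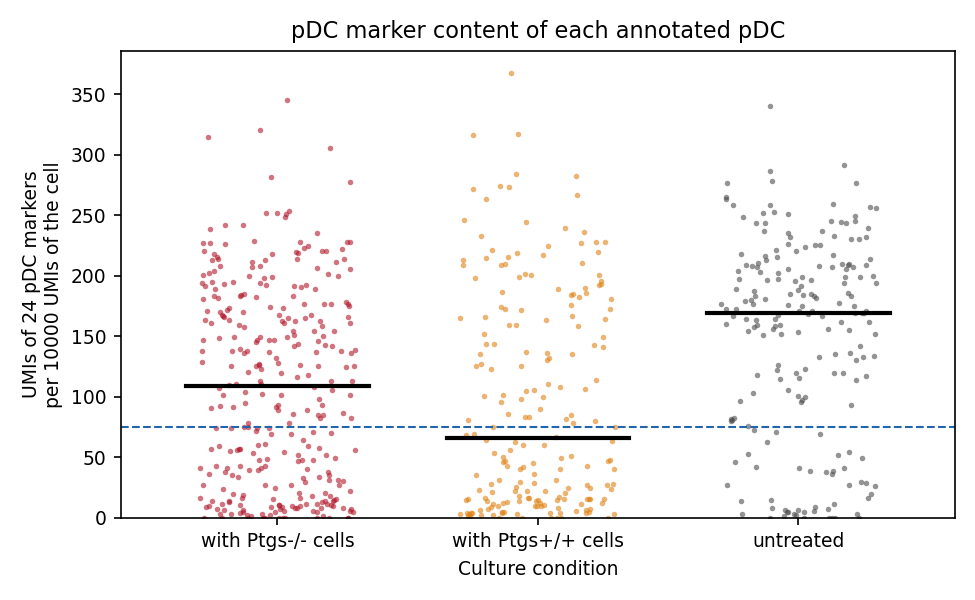
Each point is 1 annotated pDC, placed by condition (x axis) and by its UMIs of 24 pDC markers per 10000 UMIs (y axis); black bars are medians (109, 65.8 and 169) and the dashed line is the level of 75. Cells gather in a band above the line and a band near 0, and the lower band is thinnest in the untreated culture.

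Part of the marker-low cells carried genes of other lineages. S100a8 and S100a9, calprotectin genes of neutrophils, reached 10 UMIs or more in 25 annotated pDCs (8 with Ptgs-/- cells, 15 with Ptgs+/+ cells and 2 untreated), and these 25 cells held 99.3% of all UMIs of that pair in the class. None of the 25 was marker-high. The 10 neutrophil markers summed to a mean of 41.1 UMIs per 10000 with Ptgs-/- cells, 124 with Ptgs+/+ cells and 18.04 untreated over all annotated pDCs, and to 0.82, 1.08 and 0.46 over marker-high cells. At least 2 UMIs of the B cell genes Cd79a, Cd79b and Ms4a1 occurred in 21 cells, of which 3 were marker-high. For the melanoma cells, 3 of 5 marker genes were at 0 UMIs in all annotated pDCs.

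Annotated pDCs made up 8.71% of cells with Ptgs-/- cells (exact interval 7.80 to 9.68%), 5.15% with Ptgs+/+ cells (4.48 to 5.89%) and 5.98% untreated (5.20 to 6.84%). The ratio was 1.46 for Ptgs-/- over untreated (1.23 to 1.73), 0.861 for Ptgs+/+ over untreated (0.712 to 1.04) and 1.69 for Ptgs-/- over Ptgs+/+ (1.42 to 2.01). Marker-high pDCs alone made up 5.13% with Ptgs-/- cells, 2.50% with Ptgs+/+ cells and 4.61% untreated. Their ratios were 1.11 (0.905 to 1.37), 0.542 (0.422 to 0.696) and 2.06 (1.61 to 2.62) in the same order. Marker-low cells made up 3.57%, 2.65% and 1.38%, again with Ptgs-/- cells, with Ptgs+/+ cells and untreated.

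Counting cells by Siglech and Tcf4 in any class gave another order. Cells with a UMI of both genes made up 8.51% with Ptgs-/- cells, 5.28% with Ptgs+/+ cells and 10.5% untreated. The Ptgs-/- over untreated ratio was then 0.813 (0.703 to 0.941), the opposite direction to the annotated class. Of these cells, 133 of 305 with Ptgs-/- cells, 109 of 205 with Ptgs+/+ cells and 195 of 350 untreated were annotated as other, deeper classes and are not shown to be pDCs. Cells of any class with the marker-high level of the 24 markers gave ratios of 1.09 (0.907 to 1.32), 0.556 (0.446 to 0.694) and 1.97 (1.59 to 2.44), close to those of marker-high pDCs. After thinning to 3000 UMIs the shares with a UMI of Siglech and Tcf4 were 4.96%, 2.86% and 5.61%. Under all 5 definitions the lowest share was that with Ptgs+/+ cells, while the order of the other 2 conditions changed with the definition. For the annotated class, the interval of Ptgs+/+ over untreated includes 1. A share depends on the other classes, and mDC made up 13.3% with Ptgs-/- cells, 27.3% with Ptgs+/+ cells and 6.40% untreated. With the proliferating clusters left out of the total, the annotated ratios were 1.33 (1.12 to 1.57), 0.718 (0.595 to 0.867) and 1.85 (1.56 to 2.19), so that the Ptgs+/+ over untreated interval no longer includes 1. A lower share and a gain of other cells cannot be told apart.

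**Figure D2:**
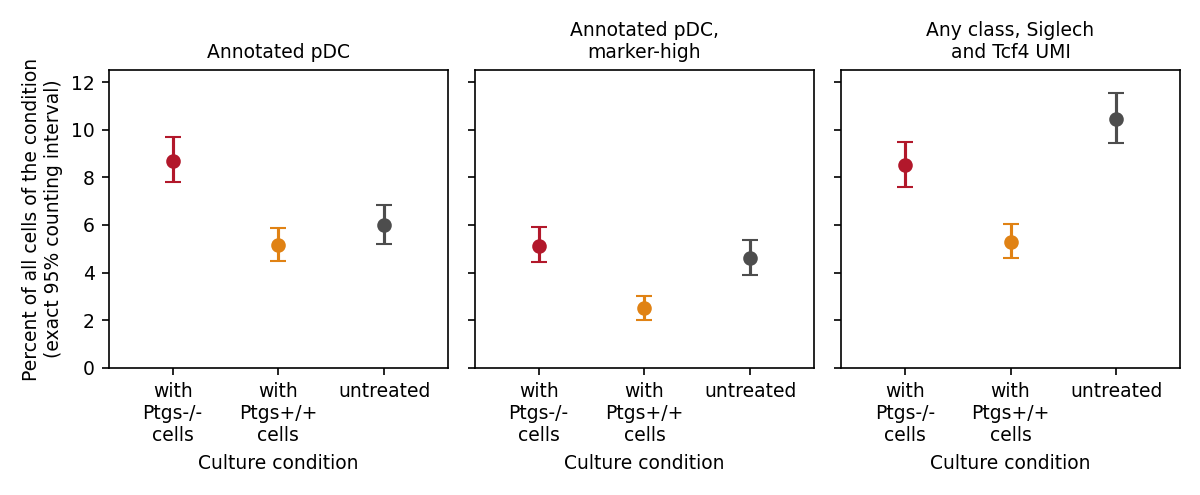
Share of all cells of a condition (y axis, percent, with exact 95% counting intervals) for annotated pDCs, for marker-high pDCs, and for cells of any class with a Siglech and a Tcf4 UMI. The culture with Ptgs+/+ cells is lowest in each panel, and the order of the culture with Ptgs-/- cells and the untreated one differs between panels.

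Against the other cultured DCs, pDCs were high in genes of inhibitory and ITAM-linked receptors, nucleic acid sensing, lysosomal proteases and lymphoid cells, and low in MHC class II genes. Maturation and cell cycle genes were also lower, but the pooled other DCs include mDC, where the maturation genes Fscn1 and Ccr7 are highest, and the proliferating classes, where Mki67 and Top2a are. The annotation was made from these same cells, so the values are a description with no test. Of 6356 genes found in at least 10% of pDCs or of other DCs, 455 were at least 2-fold higher in pDCs (7.16%) and 471 at least 2-fold lower (7.41%). The 25 highest genes differed by 3.79 to 5.43 on the log2 scale (median 4.11) and were at least 2-fold higher in each of the 3 conditions. They were ranked on the pooled cells of those conditions, so the result per condition was nearly fixed in advance. For 24 of the 25, proliferating cDC2 came next, and the median over that next class was 2.71. That class also held 69 of the marker-high cells found outside the annotated pDCs (11.9% of its cells).

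Siglech averaged 763 CPM in pDCs against 12.9 CPM in other DCs, the largest difference (log2 5.43). Its promoter is shown as the leading pDC gene, in mouse GRCm38.p6 (RefSeq), chr7:55767934-55768233, plus strand, from 250 bases before to 50 after the gene's start, with matches to the E-box CANNTG, the letters bound by TCF4 and its relatives, in capitals.
Siglech: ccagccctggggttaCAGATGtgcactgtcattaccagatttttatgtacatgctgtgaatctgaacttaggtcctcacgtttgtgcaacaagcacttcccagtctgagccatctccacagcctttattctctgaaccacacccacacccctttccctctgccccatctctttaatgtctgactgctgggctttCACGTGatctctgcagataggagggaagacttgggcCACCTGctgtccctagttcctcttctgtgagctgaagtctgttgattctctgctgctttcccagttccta
It holds 3 matches. A match is a description only: of 32851 promoter windows of this length, searched on both strands, 72.3% hold CANNTG, and so do 16 of the 18 among the 25 highest pDC genes that have a window.

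Among surface and secreted proteins, Ccr9, a homing receptor for the gut, averaged 243 CPM in pDCs against 3.31 CPM in other DCs (log2 4.90). Ly6d, a surface protein of lymphoid precursors and pDCs, averaged 2481 against 52.9 CPM (5.42). Lair1, an inhibitory collagen receptor, averaged 235 against 6.20 CPM (4.42), and Plac8 4703 against 294 CPM (3.98). Cox6a2, a muscle-type cytochrome oxidase subunit, averaged 872 against 46.4 CPM in other DCs but was only 0.54 above proliferating cDC2 on the log2 scale. S100a9 was also among the 25 genes and belongs to the 25 S100-bearing cells described above.

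Of the factors that build the lineage, Tcf4 averaged 1014 CPM in pDCs against 90.7 CPM in other DCs (log2 3.41), Runx2 298 against 22.9 CPM (3.44), Bcl11a 427 against 26.1 CPM (3.79) and Spib 144 against 16.6 CPM (2.79). Irf8, needed by pDCs and cDC1, differed less, at 1594 against 820 CPM (0.96). Irf7, the factor that switches on interferon genes, averaged 111 against 38.0 CPM (1.44). The sensor Tlr7 averaged 51.5 against 1.04 CPM (3.22). Tlr9 was near its detection limit, with 11 UMIs over all pDCs. The interferon genes Ifna2, Ifnb1 and Ifnk had 0 UMIs in 712 pDCs, which allows up to 0.421% of cells with a UMI.

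List by list, members found in at least 5% of either class were counted as at least 1.5-fold higher or lower, which 17.3% and 12.9% of all 8388 such genes were, with an all-gene median of log2 0.11. Inhibitory and ITAM-linked receptors were higher for 17 of 22 and lower for none (median 1.31). Lysosome and cathepsin genes were higher for 10 of 15 (median 1.16), led by Ctsl at 856 CPM in pDCs against 37.0 CPM in other DCs, while Cst3, a cathepsin inhibitor abundant in conventional DCs, was lower (log2 -3.05). Trafficking genes were higher for 9 of 14 (median 0.98), and sensing genes for 10 of 19 (0.66). All 12 lymphoid genes measured were higher (median 3.97), with Dntt at 142 against 2.26 CPM. The receptor, lymphoid, sensing and trafficking lists share members with the 24 pDC markers, among them Siglech, Bst2, Ly6d, Tlr7 and Ccr9. A gene found almost only in pDCs also passes the 5% filter through them, so these counts only describe the class. Lists of secretory pathway genes (median 0.42) and of MHC class I (0.06) were near the all-gene median.

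The lists low in pDCs against the pooled other DCs were those of antigen presentation, maturation and division. MHC class II genes were lower for 10 of 12 (median -1.49): H2-Ab1, a class II chain, averaged 1007 CPM in pDCs against 5236 CPM in other DCs, and 1777 CPM in proliferating cDC2, the lowest of the other classes. Maturation genes were lower for 10 of 11 (median -1.72), and Fscn1, an actin bundler of mature DCs, averaged 6.25 against 95.3 CPM. That difference lay in mDC, at 528 CPM, since Fscn1 averaged 3.59 CPM in cDC1 and 3.24 CPM in cDC2. The 10 markers of CCR7+ DCs summed to a mean of 1.88 UMIs per 10000 in pDCs, against 0.749 in cDC1, 1.74 in cDC2 and 69.9 in mDC. Cd83, a co-stimulatory surface protein, was lower in pDCs than in those classes, at 33.0 CPM against 148 CPM in cDC1, 70.5 CPM in cDC2 and 773 CPM in mDC. Cell cycle genes were lower for 15 of 17 (median -1.48). The thinned share of cells with a UMI of the proliferation gene Mki67 was 3.67% in pDCs, against 3.44% in cDC1, 2.37% in cDC2, 2.59% in mDC, 58.1% in proliferating cDC1 and 58.5% in proliferating cDC2. The pDCs were thus as low as the classes that are not annotated as proliferating. The chemokine gene Ccl17 was the lowest of all, at 25.6 CPM in pDCs against 596 CPM in other DCs (log2 -4.30), and Xcr1, the cDC1 chemokine receptor, averaged 1.42 against 61.6 CPM (-3.38).

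**Figure D3:**
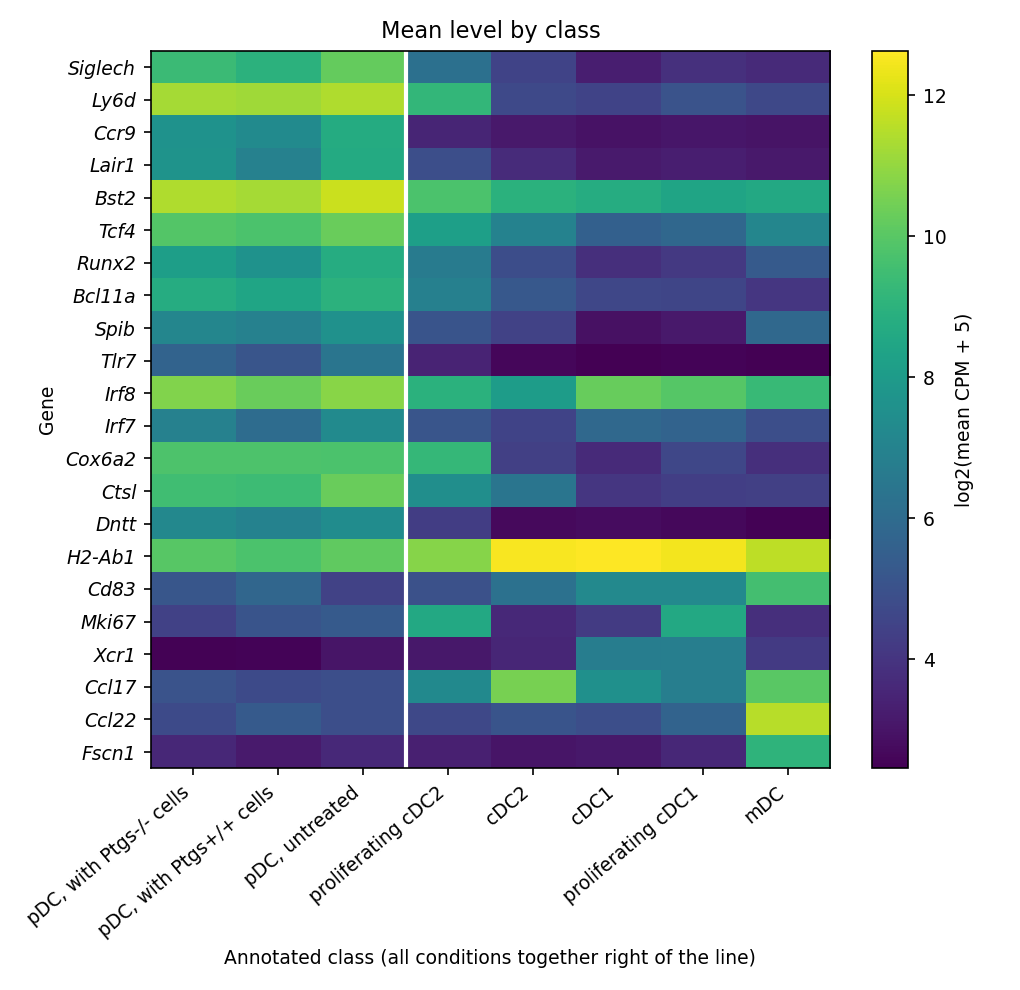
Mean level, as log2(mean CPM + 5) on the colour scale, of 22 genes (rows) in pDCs of each condition (left of the white line) and in the other classes over all conditions (right). Siglech, Ccr9 and Dntt are brightest in pDCs, Cox6a2 and Ly6d are also bright in proliferating cDC2, H2-Ab1 is brighter to the right of the line, and Fscn1 is brightest in mDC.

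The same genes were set against pDCs from CT26 colon tumours of BALB/c mice, harvested on day 12 and run as a separate library (204 annotated pDCs and 1367 other DCs). There, 23 of the 25 genes were at least 2-fold higher in pDCs than in other DCs (median log2 3.86), against 13.7% of all genes tested in that library. The tumour annotation was itself made by clustering, and 12 of the 25 genes are among the 24 pDC markers. These values are therefore a description and not an independent test. Siglech averaged 2326 CPM in tumour pDCs against 8.47 CPM in other tumour DCs (log2 7.43). The exceptions were S100a9 (log2 -5.31) and Ly6a, a stem cell antigen induced by interferon (0.85).

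In pDCs cultured with Ptgs-/- cells against untreated pDCs, Il12a and a group of low-oxygen response genes were higher, and Cd180 and Calm4 were lower. Of 4476 genes, 60 were at least 2-fold higher (1.34%) and 65 at least 2-fold lower (1.45%). With Ptgs+/+ cells against untreated, 163 of 4717 genes were at least 2-fold higher (3.46%) and 237 lower (5.02%). Both comparisons share the untreated cells, and they rest on 312 pDCs with Ptgs-/- cells and 200 in each other condition. In each other class, too, more genes were past 2-fold with Ptgs+/+ than with Ptgs-/- cells. The shares were 5.16% against 1.72% in cDC1, 7.52% against 4.44% in mDC and 4.70% against 1.76% in proliferating cDC1. The gap was smaller in cDC2 (1.16% against 1.01%) and proliferating cDC2 (3.92% against 2.90%). In marker-high pDCs, which are part of the same cells, 38 of the 60 and 27 of the 65 genes were also past 2-fold with Ptgs-/- cells, and 96 of the 163 and 144 of the 237 with Ptgs+/+ cells. Of all genes measured in marker-high pDCs, 3.49% and 9.30% were past 2-fold in these comparisons. Because the marker-high cells gave part of the calls, the overlap is partly built in.

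Cd180, a TLR-like receptor that tunes responses to bacterial lipids, averaged 73.2 CPM with Ptgs-/- cells (86 UMIs), 34.4 CPM with Ptgs+/+ cells (28 UMIs) and 247 CPM untreated (196 UMIs). Untreated pDCs are the highest, with a ratio of UMI shares of 3.40 (2.63 to 4.43) for untreated over Ptgs-/- and 7.86 (5.27 to 12.1) for untreated over Ptgs+/+. Relative to them Cd180 was lower by log2 -1.69 with Ptgs-/- cells and -2.68 with Ptgs+/+ cells, and by -1.48 and -2.37 in marker-high cells. It was lower in cDC1 too (-1.38 and -2.31), and in cDC2 (-1.07 and -1.20). Calm4, which encodes a calmodulin-like protein, had 27 UMIs with Ptgs-/- cells, 1 with Ptgs+/+ cells and 92 untreated. Its level was 14.4, 1.41 and 84.8 CPM in the same order (22.7, 2.91 and 108 CPM in marker-high cells).

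Il12a, a subunit gene of interleukin-12, averaged 66.9 CPM with Ptgs-/- cells (86 UMIs), 52.3 CPM with Ptgs+/+ cells (46 UMIs) and 12.9 CPM untreated (14 UMIs). Both cultures with melanoma cells lie above the untreated one, by log2 2.01 and 1.68, and by 2.04 and 1.99 in marker-high pDCs. The ratio of UMI shares to untreated was 4.12 (2.33 to 7.85) with Ptgs-/- cells and 2.93 (1.58 to 5.76) with Ptgs+/+ cells. Against all other DCs, Il12a was higher in pDCs, at 47.6 against 2.82 CPM, but proliferating cDC2 had 34.0 CPM. In cDC1, cDC2 and mDC it averaged 0.82, 0.87 and 0.83 CPM, under the 5 CPM added before taking folds, so no difference between conditions could be read there. In proliferating cDC2 the difference over untreated was log2 0.45 with Ptgs-/- cells and 0.44 with Ptgs+/+ cells.

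Hilpda, a lipid droplet protein induced by low oxygen, averaged 101 CPM with Ptgs-/- cells, 120 CPM with Ptgs+/+ cells and 29.3 CPM untreated, on 126, 114 and 21 UMIs. Mgarp, a mitochondrial protein gene, averaged 31.8, 37.7 and 6.46 CPM in the same order, Ero1l, an oxidase of protein folding, 236, 269 and 68.2 CPM, and Cdkn1a, a cell cycle inhibitor, 208, 256 and 60.6 CPM. In each, both cultures with melanoma cells lie above the untreated one, also among marker-high cells. Of the hypoxia and glycolysis list, 5 of 15 members were at least 1.5-fold higher with Ptgs-/- cells and none lower (median 0.54, against -0.06 for all genes). With Ptgs+/+ cells 12 of 15 were higher and none lower (median 0.81, against -0.12 for all genes). Past 1.5-fold, 7.75% and 12.0% of all genes were higher and lower with Ptgs-/- cells, and 10.1% and 19.5% with Ptgs+/+ cells. Marker-high cells gave medians of 0.52 and 0.82. The medians in the 5 other classes were 0.12 to 0.41 with Ptgs-/- cells and 0.17 to 0.47 with Ptgs+/+ cells. Members include Bnip3, a mitophagy receptor (213, 265 and 110 CPM), and Egln3, an oxygen-sensing hydroxylase (84.9, 109 and 45.9 CPM). Maturation genes were higher for 5 of the 6 measured with Ptgs-/- cells (median 0.87) and for 5 of 6 with Ptgs+/+ cells (1.20), but few were measured in marker-high cells. Immediate-early genes, which respond to handling and to many signals, were higher for 8 of 13 with Ptgs-/- cells (0.76, and 0.39 in marker-high cells) and for 11 of 14 with Ptgs+/+ cells (1.25 and 0.55). How many melanoma cells or how much oxygen a culture held is not analysed here.

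The promoters of a pair of genes are shown as examples for this group, Bnip3 at chr7:138909457-138909756 and Mgarp at chr3:51396498-51396797, both on the minus strand of GRCm38.p6 (RefSeq) and printed 5′ to 3′ along the gene. Capitals mark ACGTG on either strand, the core of the hypoxia response element.
Bnip3: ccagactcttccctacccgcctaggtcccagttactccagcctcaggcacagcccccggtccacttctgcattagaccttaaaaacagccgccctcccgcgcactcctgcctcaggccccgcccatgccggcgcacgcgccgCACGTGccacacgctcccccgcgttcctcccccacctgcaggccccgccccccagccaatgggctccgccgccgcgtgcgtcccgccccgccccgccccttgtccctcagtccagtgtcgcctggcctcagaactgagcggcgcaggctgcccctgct
Mgarp: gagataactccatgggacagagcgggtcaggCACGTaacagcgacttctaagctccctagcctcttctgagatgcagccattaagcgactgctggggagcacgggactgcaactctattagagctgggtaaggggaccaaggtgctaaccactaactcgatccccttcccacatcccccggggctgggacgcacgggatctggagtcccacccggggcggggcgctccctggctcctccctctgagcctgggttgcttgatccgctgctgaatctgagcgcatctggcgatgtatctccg
ACGTG is in the window of 11 of the 15 hypoxia list genes, against 19.6% of all 32851 windows. More than 1 window was searched for 6 of these genes, while the background counts single windows. The count covers the whole hypoxia and glycolysis list and not the genes that were higher here, so it is a description only. The letters CACGTG, as in Bnip3, are also an E-box.

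The Ptgs+/+ culture held the widest set of high genes, and S100a9 among them lay largely in the 25 S100-bearing cells. Most of the set did not depend on those cells. Without them 148 of 4583 genes were at least 2-fold higher than untreated and 220 lower, against 163 and 237 of 4717 with them. S100a9 averaged 2398 CPM with Ptgs-/- cells, 6637 CPM with Ptgs+/+ cells and 939 CPM untreated. Without those 25 cells its difference for Ptgs+/+ over untreated was log2 -0.21, against 2.81 with them. For Thbs1, thrombospondin, the same difference was 2.84 in the whole class and -0.98 in marker-high cells. The marker-high cells leave out all 277 marker-low cells, so these values do not place Thbs1 in the 25. Ifitm2, an antiviral membrane protein, averaged 703, 1590 and 314 CPM with Ptgs-/- cells, with Ptgs+/+ cells and untreated. Its Ptgs+/+ over untreated difference was 2.32 in the whole class, 2.19 in marker-high pDCs, 2.24 in cDC1 and 1.52 in cDC2.

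The pDC markers were lower with melanoma cells in the whole class, with 12 of 23 at least 1.5-fold lower with Ptgs-/- cells and 16 of 23 with Ptgs+/+ cells (medians -0.62 and -0.84). Siglech averaged 658, 509 and 1179 CPM, Bst2 2702, 2433 and 3646 CPM, and Tcf4 956, 858 and 1259 CPM with Ptgs-/- cells, with Ptgs+/+ cells and untreated. The sum of the 24 markers averaged 109, 95.7 and 149 UMIs per 10000 over the whole class in that order. Within marker-high cells it averaged 167, 174 and 186, and within marker-low cells 26.4, 22.2 and 23.8. Both parts were cut on this same sum, which limits how far it can differ within them. The share of marker-high cells moves with the levels of the whole class (59.0%, 48.5% and 77.0%), and its part in them was not tested. Ccr9 averaged 193, 153 and 411 CPM in the same order. Ccr2, a monocyte and DC chemokine receptor that is not among the 24 markers, averaged 238, 219 and 546 CPM, lower by log2 -1.04 and -1.05 in marker-high cells. Cholesterol synthesis genes were lower for 4 of 14 with Ptgs-/- cells and higher for none (median -0.45, and -0.44 in marker-high cells), against 12.0% of all genes lower. With Ptgs+/+ cells the count was also 4 of 14 (median -0.36, and -0.35 in marker-high cells), against 19.5% of all genes.

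**Figure D4:**
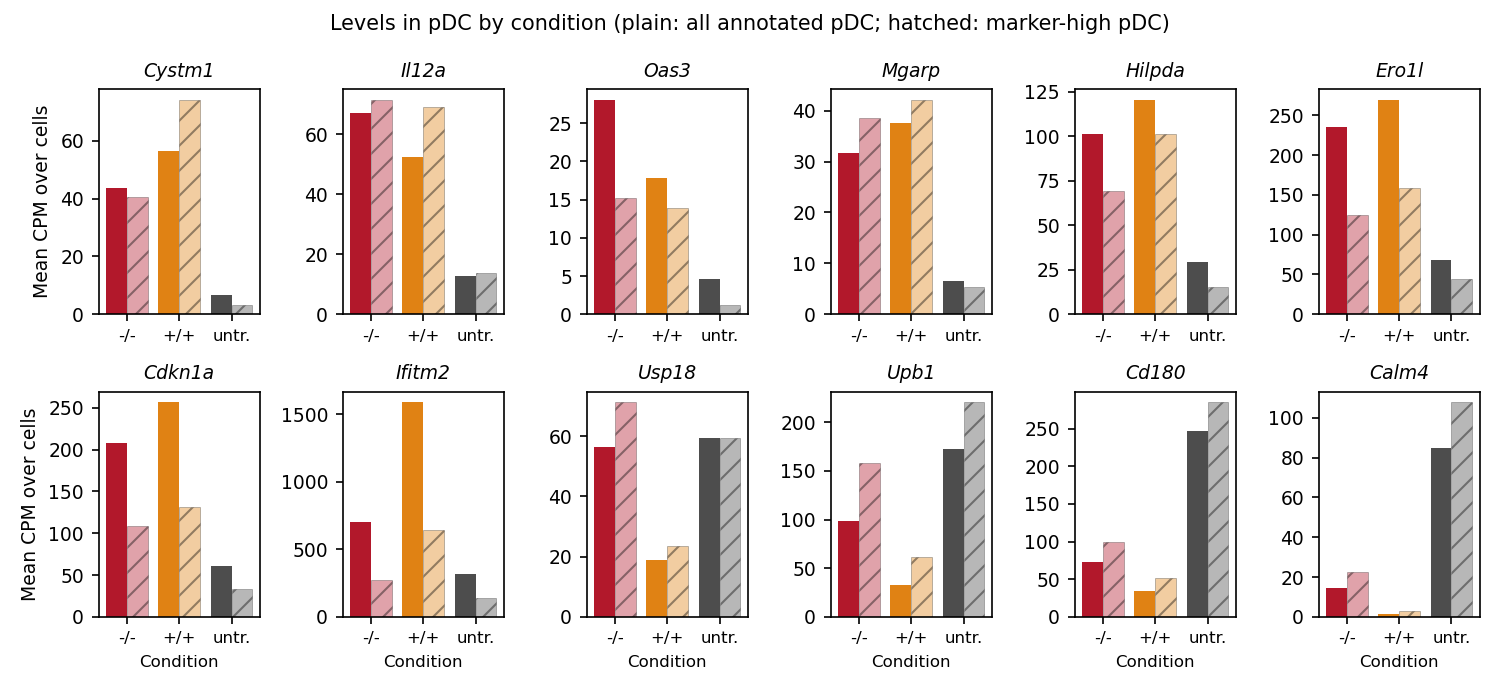
Mean CPM over cells (y axis) of 12 genes in pDCs with Ptgs-/- cells, with Ptgs+/+ cells and untreated (x axis); plain bars are all annotated pDCs and hatched bars the marker-high ones. Il12a, Mgarp and Hilpda are lowest untreated, Cd180 and Calm4 highest untreated, and Usp18 lowest with Ptgs+/+ cells.

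With Ptgs-/- cells against Ptgs+/+ cells, several interferon-stimulated genes were higher. At 2-fold, 29 of 4376 genes were higher (0.663%) and 30 lower (0.686%). Of these, 20 of the 29 and 13 of the 30 were past 2-fold in marker-high cells too, and 20 of the 30 had the same sign there. Marker-high cells, of which 97 were cultured with Ptgs+/+ cells, gave 153 higher and 49 lower of 4290 genes. Of the type I interferon-stimulated list, 8 of 18 members were at least 1.5-fold higher and 1 lower (median 0.56, against 0.05 for all genes), and past 1.5-fold 9.84% of all genes were higher and 6.0% lower. In marker-high cells 6 of 17 were higher and 1 lower (median 0.35). The medians in the 5 other classes were -0.03 to 0.19. Against untreated pDCs the list's median was 0.06 with Ptgs-/- cells, with 3 of 18 higher and none lower. It was -0.43 with Ptgs+/+ cells, with 2 higher and 5 lower of 17.

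Usp18, which removes ISG15 and damps interferon receptor signalling, averaged 56.4 CPM with Ptgs-/- cells (69 UMIs), 18.8 CPM with Ptgs+/+ cells (18 UMIs) and 59.3 CPM untreated (46 UMIs). The culture with Ptgs+/+ cells is the low one. For Ptgs-/- over Ptgs+/+ the difference was log2 1.37 (1.42 in marker-high cells), and the ratio of UMI shares was 2.89 (1.70 to 5.15). Slfn5, an interferon-induced Schlafen gene, averaged 136, 68.0 and 139 CPM with Ptgs-/- cells, with Ptgs+/+ cells and untreated (188, 106 and 161 CPM in marker-high cells). Irf7 averaged 115, 61.6 and 155 CPM in that order, lower by -1.27 with Ptgs+/+ cells than untreated (-0.85 in marker-high cells). Oas3, an RNA sensor, had another order, at 28.1, 17.8 and 4.59 CPM on 38, 23 and 4 UMIs, and at 15.2, 13.9 and 1.17 CPM in marker-high cells.

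The promoters of Slfn5 (chr11:82951852-82952151, plus strand) and Oas3 (chr5:120777610-120777909, minus strand; both GRCm38.p6, RefSeq) are shown as list members with different orders of conditions. Capitals mark the letters GAAA, any 2 bases and GAAA again, a core of the interferon-stimulated response element.
Slfn5: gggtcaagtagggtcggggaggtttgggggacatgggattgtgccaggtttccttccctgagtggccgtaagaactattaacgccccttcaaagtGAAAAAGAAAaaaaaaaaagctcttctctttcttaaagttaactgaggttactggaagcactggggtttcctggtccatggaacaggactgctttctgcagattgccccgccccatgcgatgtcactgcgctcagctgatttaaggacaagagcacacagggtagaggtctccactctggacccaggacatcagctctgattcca
Oas3: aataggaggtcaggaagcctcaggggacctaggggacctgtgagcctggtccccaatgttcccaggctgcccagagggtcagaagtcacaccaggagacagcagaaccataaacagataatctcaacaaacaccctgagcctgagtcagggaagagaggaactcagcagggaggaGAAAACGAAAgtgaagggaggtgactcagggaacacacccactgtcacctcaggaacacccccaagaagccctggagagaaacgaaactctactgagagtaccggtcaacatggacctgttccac
This motif, searched on both strands, is in the window of 13 of the 22 listed genes that have one, against 3.44% of all windows. More than 1 window was searched for 5 of these genes, while the background counts single windows. The count covers the whole interferon-stimulated list and not the genes that differed here, so it is a description only.

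Upb1, an enzyme of pyrimidine breakdown and 1 of the 24 markers, averaged 98.8 CPM with Ptgs-/- cells, 32.5 CPM with Ptgs+/+ cells and 172 CPM untreated. Btla, an inhibitory receptor, also belonged to the 10 genes highest with Ptgs-/- over Ptgs+/+ cells. Gm26917, a non-coding RNA, was the highest of these (log2 2.58), at 0.60 in marker-high cells. Scin, an actin-severing protein, was lower with Ptgs-/- than with Ptgs+/+ cells, at 7.44 against 38.8 CPM (log2 -1.81, and -2.37 in marker-high cells). Spp1, osteopontin, was lower by -1.83 in the whole class and at 0.26 in marker-high cells.

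MHC class I genes had a median of log2 0.35 for Ptgs-/- over Ptgs+/+ (2 of 12 at least 1.5-fold higher, none lower), and 0.29 in marker-high cells. H2-K1, a classical class I chain, averaged 1123 CPM with Ptgs-/- cells, 793 CPM with Ptgs+/+ cells and 1268 CPM untreated (1368, 1002 and 1401 CPM in marker-high cells). Lysosome genes had a median of 0.28 (0.25 in marker-high cells). The NF-kB list had -0.04, the secretory list 0.13 and the hypoxia list -0.22, each with the all-gene median at 0.05. The prostaglandin receptor gene Ptger2 had 5 UMIs over all 712 pDCs, too few to compare conditions. Ptgs2, the inducible cyclooxygenase, had 2 UMIs with Ptgs-/- cells, 11 with Ptgs+/+ cells and 2 untreated. The 11 UMIs lay in 6 of 200 cells, and 15 UMIs in all are likewise too few to compare conditions.

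**Figure D5:**
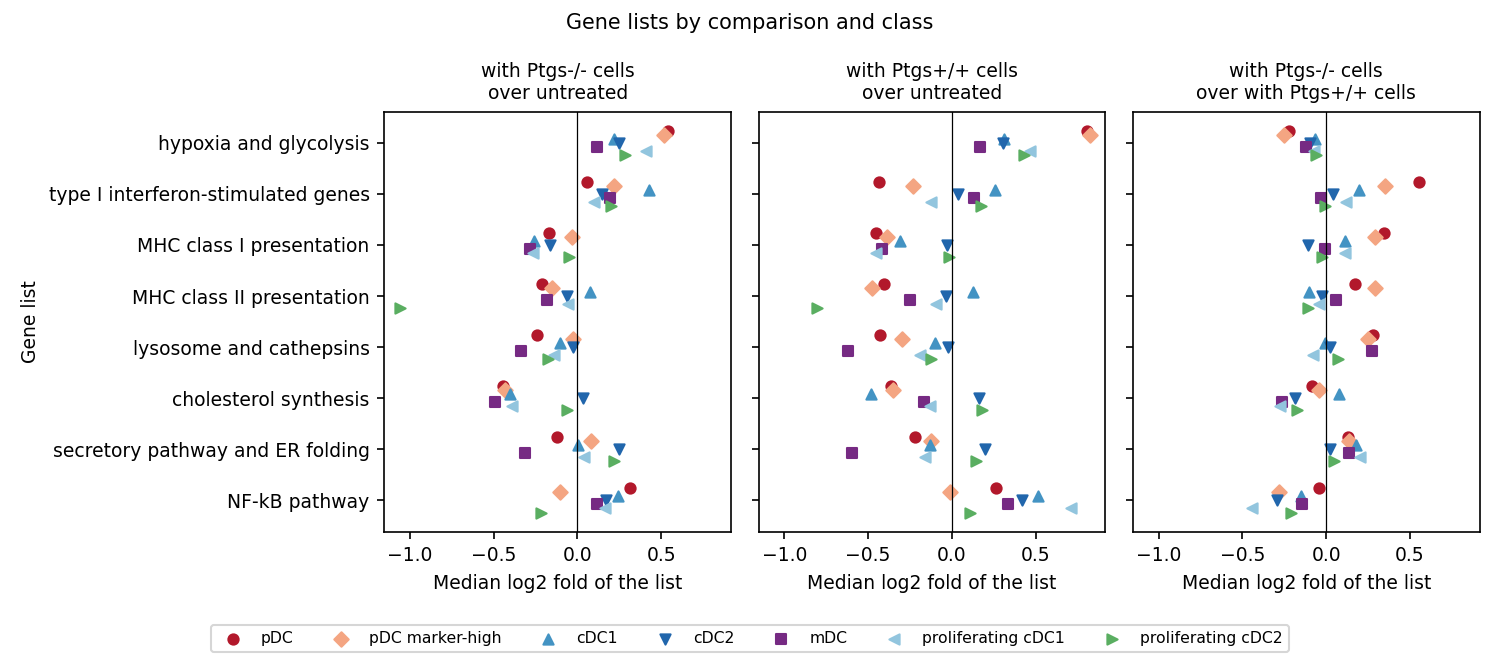
Median log2 fold of 8 gene lists (rows) for the 3 comparisons (panels), for all pDCs (red circles), marker-high pDCs (orange diamonds) and the 5 other classes. Among the 8 lists shown, the hypoxia list lies furthest right in all pDCs in the first and second panels (0.54 and 0.81). In the third panel the interferon-stimulated list does (0.56). The maturation and immediate-early lists are not shown, and their medians in all pDCs were above the hypoxia list's in the first and second comparisons.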

How the data were processed

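Droplet 3′ single-cell libraries were processed by the authors with Cell Ranger 3.0.2 and Partek on mm10, per the submitters' processing notes. The deposited matrices hold log2(CPM + 1) per cell, as the authors made them, and the cell classes are the authors' own. From the log2 values CPM was recovered, and UMI counts by taking the most common value of a cell as 1 UMI (99.94% of values whole within 0.1 UMI in the cultured matrix). Levels are mean CPM over cells. Folds are log2 differences of mean CPM + 5, called at 2-fold for genes in at least 10% of cells of either group (and 20 summed UMIs between conditions). Lists use genes in 5% of cells and 1.5-fold. Shares have exact Clopper-Pearson 95% intervals, UMI ratios exact conditional ones, share ratios log-scale ones, and 0 counts a limit of 3. No doublet caller was run, and the 5% of cells with the most genes were left out in an alternative. Named genes were the 25 highest and 10 lowest of pDCs against other DCs, the 10 highest and lowest of each condition comparison, the 4 largest of each list, and fixed markers and prostaglandin genes, leaving out ribosomal, mitochondrial, haemoglobin and receptor-segment genes. Some genes that the rule names are not reported here. Other genes were chosen after their values were seen. Members and lists were chosen with earlier results of these data known. Scripts ran in Python 3.11.15 with numpy 2.4.6, scipy 1.17.1 and pandas 2.3.3 and were tested on simulated data.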

Additional observations from a re-analysis of the deposited data

How the results depend on the processing

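No paired analysis was possible because each condition was 1 culture in 1 library, so no replicate could be left out or paired. Of 315 values of single genes under other settings, 249 stayed close, 63 moved and 3 changed sign (Thbs1 at -0.98 and Spp1 at 0.26 in marker-high pDCs, S100a9 at -0.21 without the S100-bearing cells); of 216 list medians 197 stayed close and 19 moved. Counts of genes past 2-fold depended on the thresholds. Against other DCs, 926 became 504 with a pseudocount of 20 CPM, 1928 with mean log2 per cell (145 higher, 1783 lower), 473 with genes in 25% of cells, 1893 at 1.5-fold and 1404 in marker-high pDCs. For Ptgs-/- over untreated, 125 became 197 with a pseudocount of 1, 27 with 20, 216 with mean log2 (39 higher, 177 lower), 254 and 20 with genes in 5% and 25% of cells, and 713 at 1.5-fold. For Ptgs+/+ over untreated, 400 became 147 with a pseudocount of 20, 121 with genes in 25% of cells and 1251 at 1.5-fold. For Ptgs-/- over Ptgs+/+, 59 became 107 and 13 with pseudocounts of 1 and 20, 186 and 4 with genes in 5% and 25% of cells, 512 at 1.5-fold, 99 without cells holding another lineage's UMI, 103 after thinning and 202 in marker-high pDCs (153 higher, 49 lower). Relative to the median fold, the splits were 77 higher and 44 lower for Ptgs-/- over untreated (60 and 65 otherwise), and 220 and 165 for Ptgs+/+ over untreated (163 and 237 otherwise). The pDC share ratio of Ptgs-/- over untreated, 1.46, became 0.813 and, after thinning, 0.885 for cells with Siglech and Tcf4, and 1.11 for marker-high pDCs. That of Ptgs+/+ over untreated, 0.861, became 0.504, 0.510 and 0.542, and that of Ptgs-/- over Ptgs+/+, 1.69, became 2.06 for marker-high pDCs. Where no cause follows from the setting itself, the cause was not tested. The marker-high and S100 settings were chosen after the data were seen. Genes under 20 UMIs, among them Tlr9, Ptger2 and Ptgs2, hold too few UMIs to compare conditions.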
